A study of Mus musculus with 6 samples.

Results

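The genes described here are the axon guidance ligands and receptors: 67 gene symbols, present in all 6 count tables, that are named as semaphorins of classes 3 to 7, plexins, neuropilins, ephrins, Eph receptors, Slits, Robo receptors, netrins or Unc5 receptors. They were chosen by a rule on symbols, out of 53640 symbols shared by the tables. Of the 67, 34 encode ligands and 33 receptors. All 67 passed the filter on low counts and were among the 20694 genes tested. The RNA came from bulk lysate of mouse prefrontal cortex (PFC in the labels) at 6 months of age. Control mice had a mixed C57BL/6 and C3H background and received vehicle, tau mice were PS19 mice given vehicle, and treated tau mice were PS19 mice given WDR5-0103. Each of the 3 groups had 2 libraries. PS19 is a mouse line expressing human tau with the P301S change, known to be driven by the mouse prion protein gene promoter. WDR5-0103 is a small molecule that binds WDR5, a shared subunit of the enzyme complexes that place methyl groups on lysine 4 of histone H3. The labels call the libraries biological duplicates and give no dose, route, duration or sex. Sex-linked transcripts, given below, placed the 2 control libraries with different sexes, so these were not the same animal. If the tau and treated tau duplicates were not separate animals, p-values below would in part measure technical spread.

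Axon guidance proteins steer growing axons by attraction and repulsion. Semaphorins signal through plexins, and most of the secreted class 3 semaphorins bind neuropilins as co-receptors. Ephrins are anchored in the membrane and signal through Eph receptor tyrosine kinases when cells touch, with ephrin-A held by a lipid anchor and ephrin-B crossing the membrane. Slits repel through Robo receptors, and netrins attract or repel through Dcc and Unc5 receptors. In the adult cortex many of these genes stay active, where their products act on dendritic spines, synapse number and plasticity, and several also act in blood vessels and in myelinating cells.

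Because the compound is directed at the machinery of promoter histone methylation, promoter sequences of 4 members are shown first. Methylated lysine 4 of histone H3 is known to mark active promoters and to be densest where CG dinucleotides cluster; no chromatin measurement was analysed here. RefSeq promoter windows (GRCm38.p6), taken as the 250 bases before the annotated start, were matched for 58 of the 67 members. Where a gene had several windows, the first listed was used. The median window of a member held 16 CG dinucleotides, against 6 over 27025 promoters. Those promoters were not limited to expressed, protein-coding genes, which all members are. The members ranged from 2 to 46. A GC box, the letters GGGCGG on either strand, which itself contains a CG, was found in 72.4% of the members' windows and in 32.9% of all windows. The windows below were chosen because Epha5 and Sema6b are members whose tau libraries were the lowest of the 6, Epha8 had the largest fold in the treated tau libraries and also the most CG dinucleotides, and Sema3d is a member with few. Capitals mark each CG, and each sequence is written in the direction of its gene.
Epha5 (chr5:84417383-84417632, minus strand): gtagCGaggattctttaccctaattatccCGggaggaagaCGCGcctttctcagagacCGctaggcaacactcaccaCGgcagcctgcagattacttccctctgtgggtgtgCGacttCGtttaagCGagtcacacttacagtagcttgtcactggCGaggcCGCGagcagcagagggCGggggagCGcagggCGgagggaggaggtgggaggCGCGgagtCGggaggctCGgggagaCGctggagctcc
Sema6b (chr17:56140344-56140593, minus strand): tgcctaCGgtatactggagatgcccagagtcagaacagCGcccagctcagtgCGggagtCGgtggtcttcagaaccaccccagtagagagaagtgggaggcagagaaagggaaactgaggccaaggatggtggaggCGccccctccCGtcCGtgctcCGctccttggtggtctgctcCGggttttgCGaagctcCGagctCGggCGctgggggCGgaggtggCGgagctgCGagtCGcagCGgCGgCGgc
Epha8 (chr4:136956817-136957066, minus strand): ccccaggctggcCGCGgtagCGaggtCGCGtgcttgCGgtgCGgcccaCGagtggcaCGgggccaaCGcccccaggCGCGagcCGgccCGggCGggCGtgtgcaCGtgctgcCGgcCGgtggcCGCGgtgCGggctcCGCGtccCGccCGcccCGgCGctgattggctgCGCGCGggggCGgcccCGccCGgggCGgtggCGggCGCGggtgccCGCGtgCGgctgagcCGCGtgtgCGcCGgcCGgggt
Sema3d (chr5:12382916-12383165, plus strand): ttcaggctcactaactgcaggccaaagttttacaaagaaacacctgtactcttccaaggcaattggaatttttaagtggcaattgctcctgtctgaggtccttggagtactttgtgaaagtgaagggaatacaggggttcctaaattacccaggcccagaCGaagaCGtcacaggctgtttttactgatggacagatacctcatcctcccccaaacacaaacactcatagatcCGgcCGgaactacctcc
These windows hold 20 CG dinucleotides for Epha5, 20 for Sema6b, 46 for Epha8 and 4 for Sema3d. Those of Epha5, Sema6b and Epha8 contain the GC box and that of Sema3d does not.

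Several libraries stood apart. The fewest counts were in tau 2 (17690811) and the most in treated tau 1 (34774643). The transcript Xist, made in female cells, and the Y-linked Ddx3y placed control 2 and both tau libraries with females, and control 1 and both treated tau libraries with males. In treated tau against tau, a difference of sex cannot be told apart from one of treatment. Because control held a library of each sex, both comparisons with control were unbalanced for sex as well. Prnp, the gene whose promoter the transgene uses, stood at 1654 CPM in control 1, within the range of the PS19 libraries (1472 to 1876 CPM) and above control 2 (876 CPM). Control 1 below means the library so labelled. All 10 cortical excitatory markers were present in every library (summed 1574 to 1849 CPM). The 7 olfactory bulb markers summed to 204 CPM in control 1 and to between 33 and 48.9 CPM elsewhere. The 10 striatal markers summed to 348 CPM in tau 2 and to between 164.5 and 217 CPM elsewhere, with tau 1 at 217 CPM. In the edgeR fit described below, all 10 had positive fold changes for tau against control. In 9 of them both tau libraries lay above both controls, as in 20.3% of all genes tested. For treated tau against tau all 10 were negative, and 3 were called lower at an adjusted p under 0.05 (30%, against 0.677% of all genes). The 8 oligodendrocyte markers summed to 5490 CPM in tau 2 and 1427 CPM in control 2, with the other 4 libraries between 2404 and 2891 CPM. CPM, a gene's count relative to the size of its library, was taken after TMM scaling of library sizes.

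Expression differed widely among the members. Levels of different genes are compared as CPM per kilobase of annotated exon, averaged over the 6 libraries. Ephb6, an EphB receptor without kinase activity, stood highest at 62.9, followed by Epha4, a receptor for both ephrin classes, at 51.9. Epha4 alone made up 55.8% of the summed EphA level and Ephb6 83.9% of the EphB level. In CPM, Epha4 had 379 and 404 in control, 458 and 413 in tau, and then 421 and 435 in treated tau. The spread between libraries of one group was far smaller than the gap from Epha4 to the next EphA receptor, Epha7, at 12.7 CPM per kilobase. Epha1, Epha2 and Epha8 were the lowest EphA receptors, at 0.201, 0.222 and 0.671 CPM per kilobase.

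Among ligands, the membrane-bound semaphorins were the most abundant. Sema7a, a lipid-anchored semaphorin that signals through Plxnc1 and integrins, had the highest level at 36.3 CPM per kilobase, followed by Sema6b, a transmembrane ligand of class A plexins, at 23.7. The class 3 semaphorins, which are secreted, summed to 20.9 CPM per kilobase against 104 for classes 4 to 7. Sema3c led them at 8.83, and Sema3b was lowest at 0.487. Ephrin-B3 (Efnb3, 14.5) led the ephrin-B genes and Efna3 (12.05) the ephrin-A genes, of which Efna4 was lowest at 0.21, with 4 counts in tau 2. Efnb3 ranged from 37.6 to 60.2 CPM, with 50.8 and 37.6 in control, 42.4 and 60.2 in tau, but 41.1 and 44.4 in treated tau. Its tau libraries differed by more than any group means did. Sema3c had 74.7 and 58.4 CPM in control, 66.2 and 57.7 CPM in tau, with 62.3 and 59.1 CPM in treated tau, and the 3 groups overlapped. Netrins were the least abundant family, with a sum of 4.89 CPM per kilobase led by Ntn4, a basement membrane netrin, at 2.64.

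Among the plexins no gene led clearly. Plxna4 (15.2), Plxna2 (14.5), Plxna1 (12.6) and Plxnc1 (12.03) lay close together in CPM per kilobase, and neighbours in that order overlapped across libraries. Plxna4, a plexin for class 3 and class 6 semaphorins, had 205 and 234 CPM in control, 188 and 214 CPM in tau, with 217 and 230 CPM in treated tau. Plxna4 was the highest over all exons and Plxna2 over the longest transcript, so their order depends on the length used. For the other 11 families both lengths gave the same leading gene. Robo2 (13.4) exceeded Robo1 (5.29), Slit1 (10.1) exceeded Slit3 (5.76) and Slit2 (3.25), Unc5a (12.6) exceeded Unc5d (5.65), and Nrp1 (5.74) exceeded Nrp2 (3.23). Robo4, a receptor of endothelium, stood at 0.533. Robo2, a Slit receptor of neurons, had 231 and 228 CPM in control, 231 and 209 CPM in tau, with 231 and 236 CPM in treated tau, so that tau 2 alone stood lower. Over all members, 2 had a mean below 1 CPM, 15 lay between 1 and 10 CPM, 40 between 10 and 100 CPM and 10 above.

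**Figure D1:**
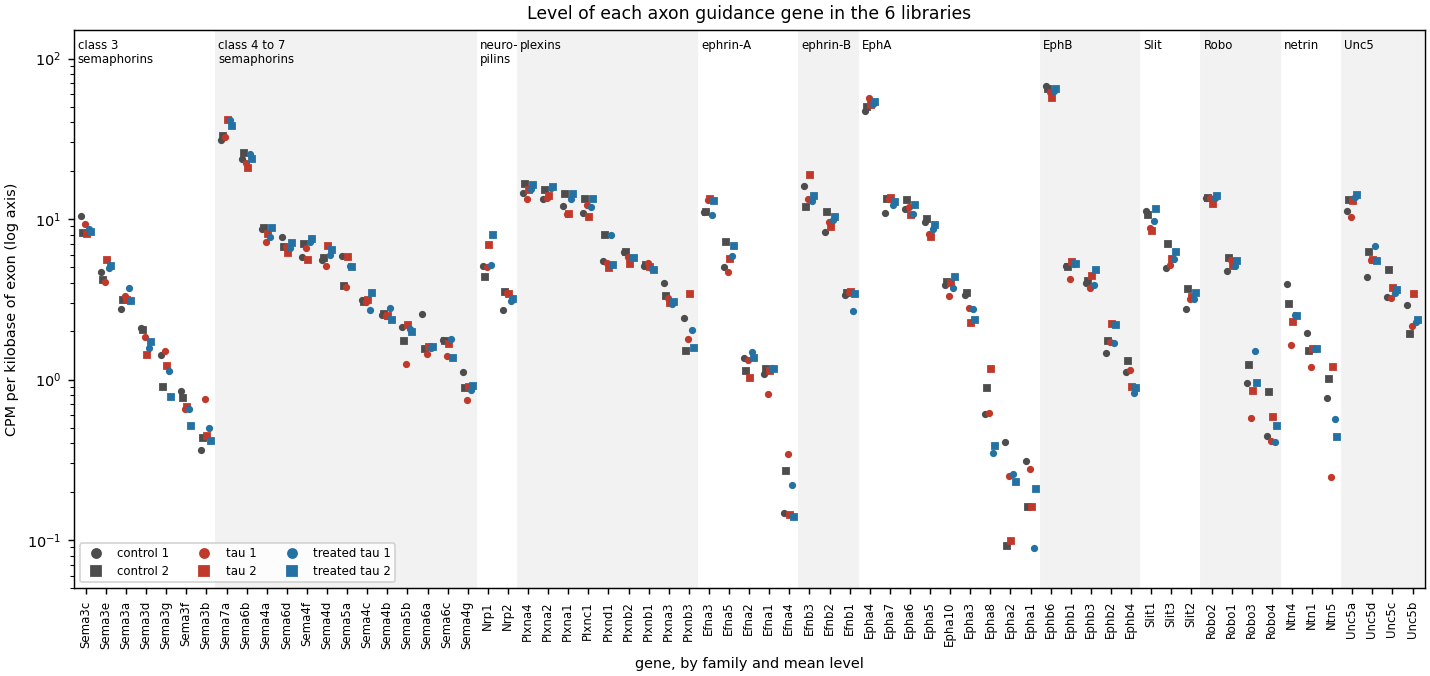
Level of every member in CPM per kilobase of exon (log axis), with 1 point per library, circles for replicate 1 and squares for replicate 2 of each group, ordered by mean level within 12 families. Ephb6 (62.9) and Epha4 (51.9) stand highest, and in each pair of groups the libraries overlap for most genes.

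The whole set kept a similar total in the 3 groups. Summed over the 67 members, expression was 3645 and 3863 CPM in control, 3586 and 3666 CPM in tau, and 3779 and 3902 CPM in treated tau. The lower control library lay between the tau libraries, and the treated tau libraries lay on both sides of control 2. Tau 1 was the lowest of the 6 libraries for 20 of the 67 members (29.9%), against 15.8% of all genes tested, and control 2 was the highest for 18 (26.9%), against 18.6%. In bulk tissue, fewer cells of a type and less RNA per cell cannot be told apart.

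Tau was compared with control to ask which guidance genes differ with the P301S tau transgene. The lowest p-values belonged to members with lower values in tau: the netrin Ntn4, the EphA receptor genes Epha5 and Epha3, the ligand gene Slit1, the semaphorin receptor gene Plxna1 and the semaphorin Sema6b. No member passed. At an adjusted p under 0.05, edgeR (quasi-likelihood) called 0 of 67 members and 0% of all 20694 genes. At an unadjusted p under 0.05 there were 6 members (8.96%, against 9.95% of all genes), of which 6 were lower in tau (against 5.64% of all genes) and 0 higher (against 4.31%). DESeq2 called 0 of the 39 members to which it gave an adjusted p, and 0.78% of all genes with one. The limma-voom fit called 0 members and 0% of all genes. By fold change alone, 45 members were negative and 22 positive, with a median log2 fold change of -0.08 over the members and -0.003 over all genes. With offsets for GC content and transcript length 31 members were positive, where the median of all genes was 0.06, and without control 2 30 were. The negative side held 11 of 13 class 4 to 7 semaphorins (median -0.17), 7 of 9 plexins (-0.13), 6 of 9 EphA receptors (-0.13) and all 3 netrins (-0.48). The class 3 semaphorins (4 of 7 positive, median 0.10) and the neuropilins (both positive, 0.23) lay on the other side.

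Ntn4 (chromosome 10, 93640681 to 93747207, GRCm38), the netrin of vascular and epithelial basement membranes, had 14.7 and 11.02 CPM in control, 6.18 and 8.60 CPM in tau, and 9.44 and 9.28 CPM in treated tau. Both tau libraries lay below all others and the treated tau libraries lay between the tau and control libraries. The log2 fold change from control to tau was -0.83 ± 0.21 (SE; 95% interval -1.29 to -0.36; edgeR adjusted p = 0.441, unadjusted 0.00283). The 7 endothelial and mural markers summed to 313 and 297 CPM in control, 280.5 and 258 CPM in tau, with 300.9 and 266 CPM in treated tau, and none was at 0 throughout. Of these, 6 had negative and 1 a positive fold change for tau against control. The endothelial tight junction gene Cldn5 had 26.1 and 18.6 CPM in control, 12.5 and 10.3 CPM in tau, with 20.02 and 22.7 CPM in treated tau. Cldn5 was thus lowest in tau, by -0.95 ± 0.19 against control (edgeR adjusted p = 0.441). It was called higher in treated tau than in tau (0.88 ± 0.19, edgeR adjusted p = 0.0285). In that comparison 4 of the 7 markers had positive and 3 negative fold changes. Cldn5 alone had an unadjusted edgeR p under 0.05 (14.3% of the list, against 12% of all genes). The part of endothelial cells in the Ntn4 values was not tested.

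Epha5 (chromosome 5, 84054761 to 84417382), a receptor for ephrin-A ligands in forebrain neurons, had 160 and 169 CPM in control, 135 and 130 CPM in tau, and 146 and 153 CPM in treated tau. The 3 groups did not overlap, with tau lowest and control highest. In log2, tau differed from control by -0.31 ± 0.08 (95% interval -0.48 to -0.13; edgeR adjusted p = 0.441), and DESeq2 gave an adjusted p of 0.0843. Epha3 (chromosome 16, 63543534 to 63864175), another ephrin-A receptor, had 29.2 and 30.0 CPM in control against 24.3 and 19.7 CPM in tau, and 23.9 and 20.3 CPM in treated tau. Control was above both other groups, which overlapped each other (-0.42 ± 0.14 for tau against control, edgeR adjusted p = 0.441).

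Slit1 (chromosome 19, 41600257 to 41743665), the Slit ligand found mainly in neurons, had 66.3 and 62.7 CPM in control, 52.1 and 50.2 CPM in tau, and 57.5 and 68.3 CPM in treated tau. Tau was the lowest group without overlap, and control lay within the range of treated tau (-0.33 ± 0.11 for tau against control, edgeR adjusted p = 0.441). Plxna1 (chromosome 6, 89316314 to 89362620), a signalling partner of neuropilins, had 108 and 130 CPM in control, 97.5 and 97.8 CPM in tau, and 120 and 129 CPM in treated tau. Its tau libraries were almost equal and below the other 4 (-0.29 ± 0.10, edgeR adjusted p = 0.445), and without control 2 the value was -0.15. An antisense gene, Gm26811, overlaps 10.7% of the Plxna1 exons. The libraries were strand-specific per the labels, the strand setting of the counting is unknown, and Gm26811 itself had at most 2.31 CPM. Sema6b had 94.3 and 103 CPM in control, 88.7 and 82.5 CPM in tau, and 101 and 94.3 CPM in treated tau, again with tau lowest (-0.20 ± 0.09, edgeR adjusted p = 0.497). With offsets for GC content and transcript length the Sema6b value was -0.01.

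Sema3d, a secreted semaphorin, and Robo3, a Robo family receptor best known from commissural axons, complete the 8 members of lowest p. Sema3d had 17.9 and 17.5 CPM in control, 15.7 and 12.2 CPM in tau, and 13.4 and 14.7 CPM in treated tau (-0.33 ± 0.15 for tau against control, edgeR adjusted p = 0.506). Robo3 had 6.47 and 8.43 CPM in control, 3.95 and 5.85 CPM in tau, and 10.4 and 6.49 CPM in treated tau (-0.65 ± 0.30, edgeR adjusted p = 0.506). In both genes the tau libraries lay below control without overlap, but single libraries moved the values. Sema3d had -0.54 without tau 1 and -0.17 without tau 2, and Robo3 had -0.35 without tau 1. Over all members, the 2 groups did not overlap in 23 of 67 (34.3%, against 41.6% of all genes tested), of which 17 were lower in tau (25.4%, against 21.3%) and 6 higher (8.96%, against 20.3%). The 6 higher were Efna3, Efnb1, Epha4, Epha7, Sema3a and Sema3b. Of these Sema3b had the largest difference, at 0.65 ± 0.34 in log2, from 1.74 and 2.08 CPM in control to 3.64 and 2.12 CPM in tau (edgeR adjusted p = 0.533).

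The intervals of the fold changes bound the differences left undetected. For 58 of 67 members (86.6%, against 65.3% of all genes tested) the 95% interval of the fold change for tau against control lay within 2-fold in either direction. Within 1.5-fold the count was 38 (56.7%, against 47.1%). Here and for the other comparisons, such shares depend on the width of the intervals as well as on the fold changes. For tau against control the median SE was 0.142 over the members and 0.192 over all genes tested. The 9 whose intervals passed 2-fold were Efna4, Epha1, Epha2, Ntn4, Ntn5, Plxnb3, Robo3, Robo4 and Sema3b. Apart from Ntn4 and Plxnb3, each of these had fewer than 10 CPM in all of the control and tau libraries.

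**Figure D2:**
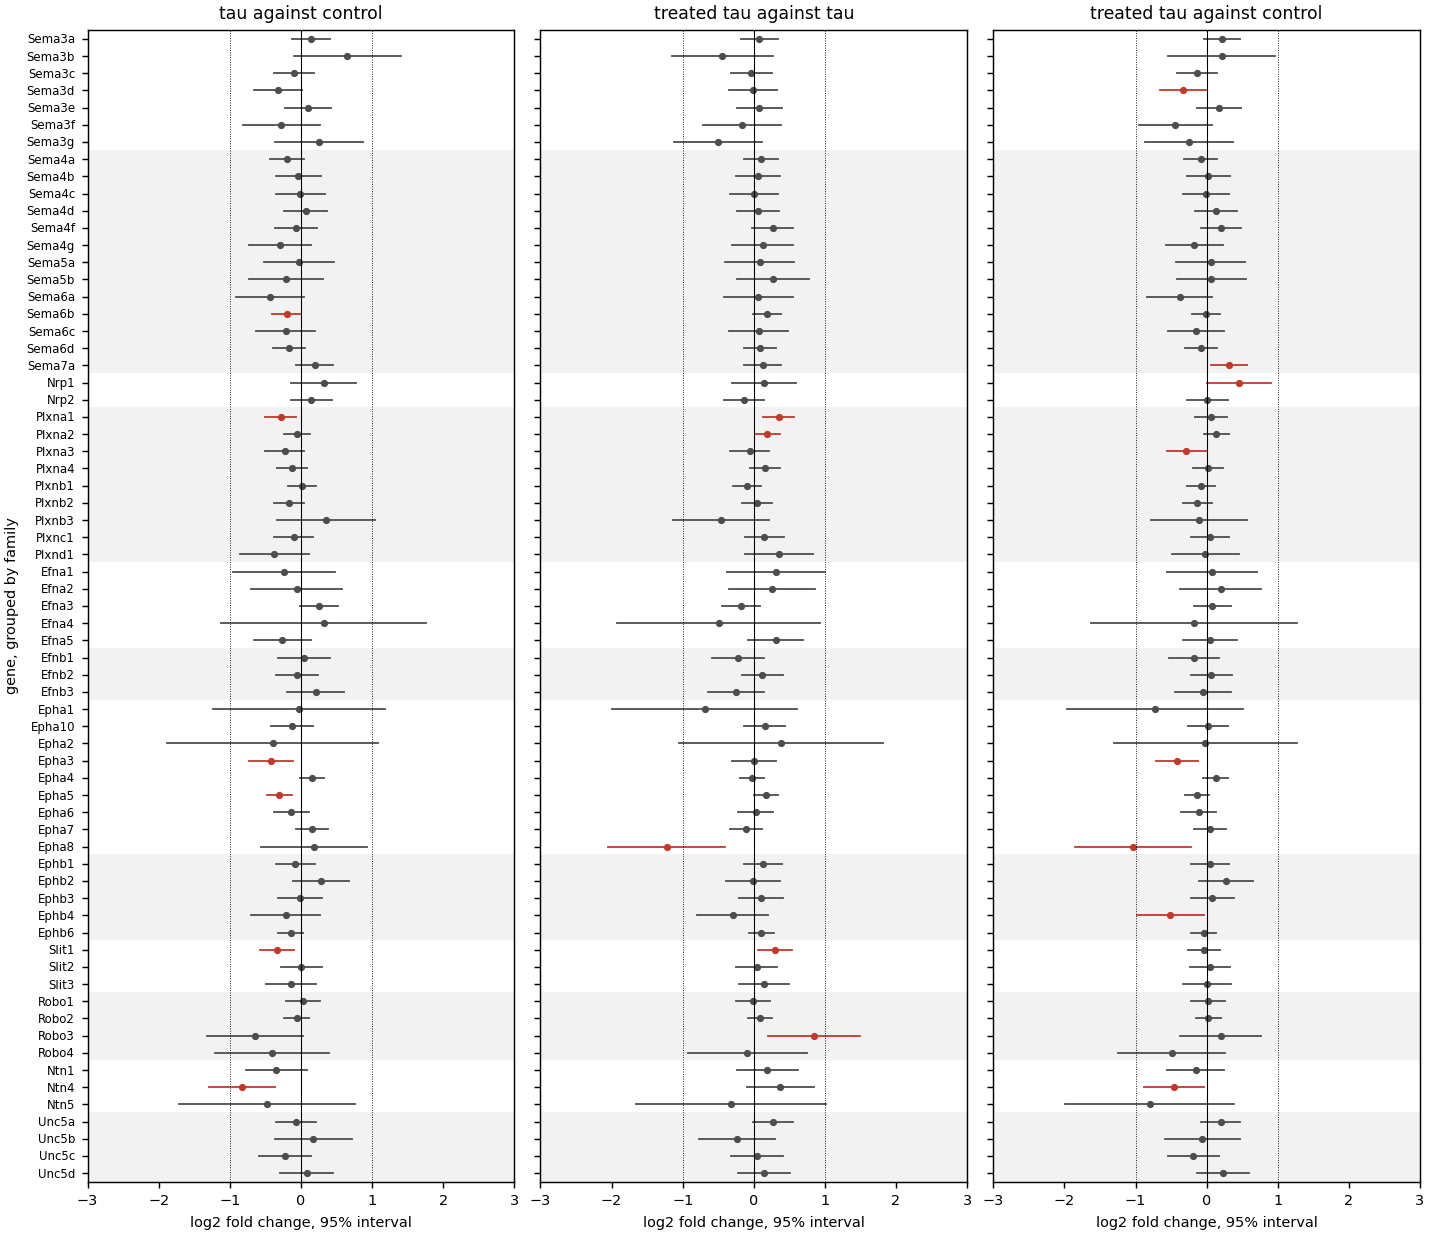
Log2 fold change (points) with its 95% interval (bars) from the edgeR fit for each member, in the 3 comparisons; red marks an unadjusted p under 0.05 and dotted lines mark 2-fold. No member passed after adjustment, and the intervals are widest for genes of low count such as Efna4 and Epha2.

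The treated tau and tau libraries were set against each other to ask which guidance genes differ with WDR5-0103 in PS19 tissue. Plxna1, Slit1, Robo3 and Plxna2 had the lowest p-values among members higher in treated tau, and Epha8 among those lower. None passed, as edgeR called 0 of 67 members, while it called 3.76% of all genes (3.09% higher and 0.677% lower). All 67 members are protein-coding, and with protein-coding genes alone the fit called 0 members and 0.305% of genes. At an unadjusted p under 0.05 there were 5 members (7.46%, against 12% of all genes), 4 higher in treated tau (5.97%, against 7.52%) and 1 lower (1.49%, against 4.45%). DESeq2 and limma-voom also called 0 members, against 3.93% and 3.38% of all genes. Of the members, 43 had positive and 24 negative fold changes, with a median of 0.07 against -0.006 over all genes. The positive side held 12 of 13 class 4 to 7 semaphorins (median 0.09), all 3 Slits (0.14) and 6 of 9 plexins (0.15). The class 3 semaphorins had 5 of 7 negative (median -0.03).

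Plxna1, with the values given above, had a log2 fold change of 0.35 ± 0.10 for treated tau against tau (95% interval 0.13 to 0.57). Its adjusted p was 0.118 in edgeR and 0.0514 in DESeq2. It passed in edgeR when only tau and treated tau were fitted (adjusted p = 0.0417) and when control 1 or control 2 was left out (0.043 and 0.0432), and with protein-coding genes alone its adjusted p was 0.301. Plxna2 (chromosome 1, 194618218 to 194816869), a close relative that also pairs with neuropilins and binds Sema6 ligands, had 232 and 239 CPM in tau and 267 and 271 CPM in treated tau, with 229 and 260 CPM in control. The treated tau libraries were the 2 highest of the 6 (0.19 ± 0.08 for treated tau against tau, edgeR adjusted p = 0.372). Slit1 had a log2 fold change of 0.30 ± 0.10 (edgeR adjusted p = 0.248) and Robo3 of 0.84 ± 0.29 (0.219). In Robo3, treated tau 1 was far above treated tau 2, which lay within the range of control. Robo3 had 0.55 without tau 1 and 0.45 without treated tau 1, and Slit1 had 0.17 without treated tau 2.

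Epha8 (chromosome 4, 136929419 to 136956816), an Eph receptor of low level here, had 2.88 and 4.19 CPM in control, 2.93 and 5.50 CPM in tau, and 1.64 and 1.83 CPM in treated tau. These values rest on 73 and 107 counts in control, 75 and 96 in tau, but only 56 and 49 in treated tau. Both treated tau libraries were below the other 4, and the 2 tau libraries differed more from each other than tau 1 did from control 1. The log2 fold change for treated tau against tau was -1.22 ± 0.37 (95% interval -2.05 to -0.40; edgeR adjusted p = 0.145), and -0.76 without tau 2. The striatal and oligodendrocyte marker sums were also highest in tau 2, as given above. Control 2, the next highest library for Epha8, had the lowest of both sums (164.5 and 1427 CPM). The part of either marker list in the Epha8 difference was not tested. Unc5a (chromosome 13, 54949411 to 55006018), a netrin receptor of neurons, had 43.0 and 53.8 CPM in tau, with 57.2 and 59.1 CPM in treated tau; control had 46.7 and 54.8 CPM. Its treated tau libraries were the highest (0.27 ± 0.12 for treated tau against tau, edgeR adjusted p = 0.434), with 0.11 without tau 1 and 0.44 without tau 2.

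Tau and treated tau did not overlap in 26 of 67 members (38.8%, against 41.3% of all genes), with 17 higher in treated tau (25.4%, against 21.2%) and 9 lower (13.4%, against 20.1%). The higher side included 3 of 5 ephrin-A genes, Efna1, Efna2 and Efna5, and 3 of 9 plexins, Plxna1, Plxna2 and Plxna4. Margins were small for Efna1 (2.06 CPM in tau 2, 2.13 CPM in treated tau 2) and Efna2 (2.82 CPM in tau 1, 2.91 CPM in treated tau 2). The lower side held Epha8, Ephb4, Epha7, Efna3, Efnb1, Nrp2, Plxnb1, Sema3f and Sema3g. For 57 members (85.1%, against 64.1% of all genes) the 95% interval lay within 2-fold either way, and for 45 (67.2%, against 47.4%) within 1.5-fold. The 2 comparisons above share the tau libraries, so a low value in tau enters one as a negative and the other as a positive fold change.

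In 7 members both tau libraries lay below all 4 others, namely Epha5, Ephb6, Ntn4, Plxna1, Robo3, Sema6b and Slit1. That is 10.4% of the members, against 8.39% of all genes tested. The reverse held for 3 members, Efna3, Efnb1 and Epha7 (4.48%, against 7.73%). Ephb6 (chromosome 6, 41605482 to 41620509) had 253 and 243 CPM in control, 235 and 213 CPM in tau, and 236 and 245 CPM in treated tau. Tau 1 and treated tau 1 were close together. In log2 it differed by -0.15 ± 0.08 for tau against control (edgeR adjusted p = 0.544) and 0.11 ± 0.08 for treated tau against tau (0.71). Efna3, a lipid-anchored ephrin, had 27.1 and 27.0 CPM in control, 31.9 and 32.7 CPM in tau, and 25.9 and 31.4 CPM in treated tau. Its control libraries were nearly equal, as were its tau libraries, and treated tau 2 approached the tau level (0.26 ± 0.12 for tau against control, edgeR adjusted p = 0.509).

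**Figure D3:**
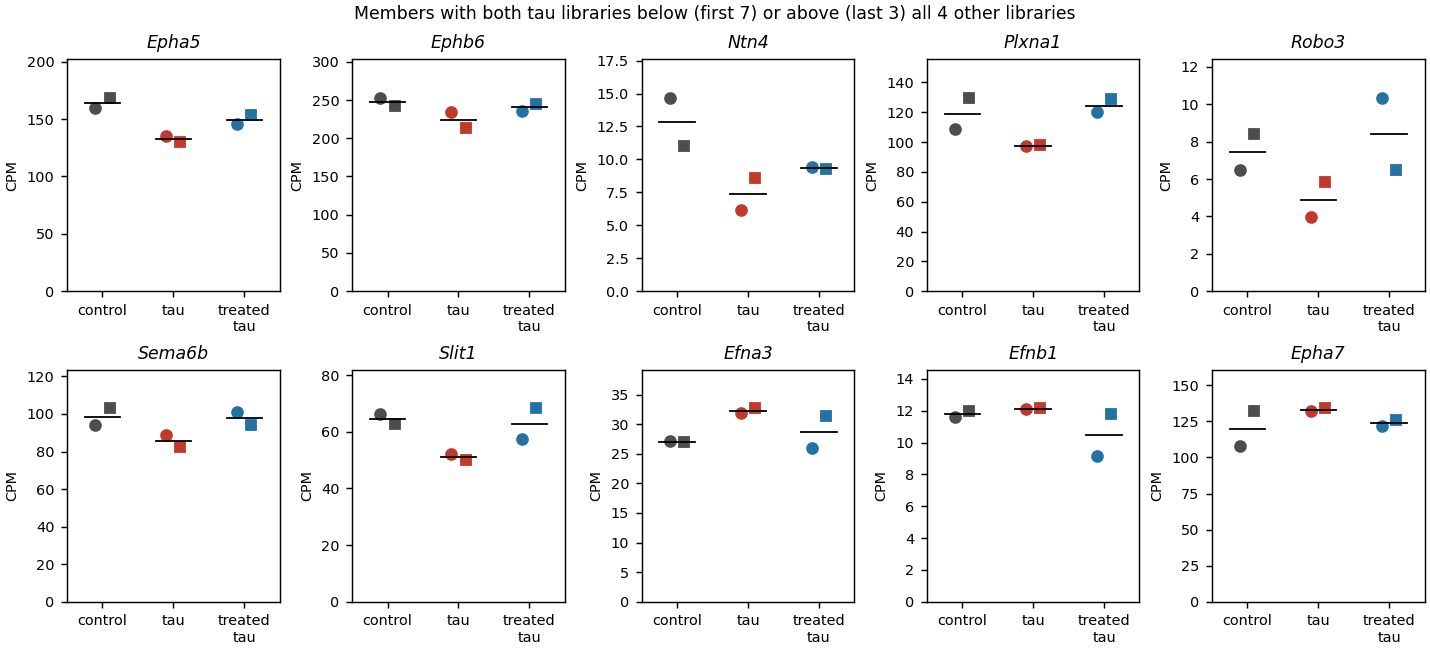
CPM of the 10 members whose tau libraries are both below (Epha5, Ephb6, Ntn4, Plxna1, Robo3, Sema6b, Slit1) or both above (Efna3, Efnb1, Epha7) the 4 other libraries, with circles for replicate 1, squares for replicate 2 and a line at each group mean; axes start at 0. Plxna1 lies at 97.5 and 97.8 CPM in tau, while several other members have gaps between replicates as wide as those between groups.

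Treated tau was compared with control to ask how treated PS19 tissue stands beside control tissue. Epha3, Epha8, Ephb4, Ntn4, Plxna3 and Sema3d had lower, and Sema7a and Nrp1 higher values in treated tau, and these 8 had the lowest p-values. No member passed in edgeR (0 of 67), which called 4.22% of all genes (3.32% higher and 0.899% lower), and 0.271% in the fit of protein-coding genes alone. At an unadjusted p under 0.05 there were 8 members (11.9%, against 16.3% of all genes), 6 lower in treated tau (8.96%, against 8.09%) and 2 higher (2.99%, against 8.16%). DESeq2, which called 4.3% of all genes, and limma-voom, which called 3.82%, called 0 members. The fold changes were divided nearly evenly, 32 positive and 35 negative, with a median of -0.008 against -0.007 over all genes. The 2 groups did not overlap in 21 members (31.3%, against 46.3% of all genes), 10 higher and 11 lower in treated tau, which are 14.9% and 16.4% of the members against 23% and 23.3% of all genes. For 61 members (91%, against 63.9% of all genes) the 95% interval lay within 2-fold either way, and for 45 (67.2%, against 47.6%) within 1.5-fold.

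Epha3, with the values above, had a log2 fold change of -0.42 ± 0.13 for treated tau against control (95% interval -0.71 to -0.13; edgeR adjusted p = 0.135). Its value for treated tau against tau was 0.00 ± 0.14, with a 95% interval of -0.31 to 0.31. Epha8 (-1.04 ± 0.36, edgeR adjusted p = 0.187) and Ntn4 (-0.46 ± 0.19, 0.267) were also below control in both treated tau libraries, and Ntn4 had -0.23 without control 1. Ephb4, the EphB receptor of venous endothelium, had 5.17 and 6.04 CPM in control, 5.32 and 4.18 CPM in tau, and 3.80 and 4.10 CPM in treated tau (-0.51 ± 0.21 for treated tau against control, edgeR adjusted p = 0.266). Treated tau was lowest for Ephb4, although treated tau 2 and tau 2 differed little.

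Sema7a (chromosome 9, 57940112 to 57962865), the most abundant semaphorin, had 103 and 109 CPM in control, 107 and 136 CPM in tau, and 137 and 126 CPM in treated tau. Tau 2 stood with the treated tau libraries and tau 1 with control. The log2 fold change for treated tau against control was 0.32 ± 0.11 (95% interval 0.06 to 0.57; edgeR adjusted p = 0.198). Nrp1 (chromosome 8, 128358604 to 128503363), a co-receptor for class 3 semaphorins and for vascular endothelial growth factor, had 49.9 and 42.8 CPM in control, 49.2 and 67.2 CPM in tau, and 50.5 and 77.3 CPM in treated tau. The second library was the higher one in tau and in treated tau, by a margin larger than the difference between the group means (0.46 ± 0.20 for treated tau against control, edgeR adjusted p = 0.298). The Nrp1 value was 0.74 without treated tau 1 and 0.13 without treated tau 2. Plxna3, an X-linked plexin, had 31.4 and 26.3 CPM in control, 25.5 and 23.6 CPM in tau, and 23.4 and 24.0 CPM in treated tau. Control 1 was the highest library and all 4 PS19 libraries lay below both controls (-0.28 ± 0.12 for treated tau against control, edgeR adjusted p = 0.275), with -0.15 without control 1. Sema3d had -0.34 ± 0.14 in the same comparison (edgeR adjusted p = 0.283), and -0.17 with the GC content and length offsets.

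Libraries of one group differed most in Ntn5, Epha2, Plxnb3 and Epha8, among members with a mean of at least 1 CPM. Ntn5, a secreted netrin whose exons are overlapped over 23.4% by the antisense gene Sec1, had 0.55 CPM in tau 1 (14 counts) and 2.64 CPM in tau 2 (46 counts). Epha2 had 1.89 CPM in control 1 (48 counts) and 0.43 CPM in control 2 (11 counts). Plxnb3, a plexin known from oligodendrocytes, had 15.7 and 9.84 CPM in control, 11.5 and 22.0 CPM in tau, and 13.3 and 10.2 CPM in treated tau. Its highest library, tau 2, and its lowest, control 2, were also the highest and lowest in the summed oligodendrocyte markers. The share of Plxnb3 differences that goes with those cells was not tested.

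Other members with wide gaps on adequate counts were Unc5b, Sema5a and Sema6a, chosen after their values were seen. Unc5b, a netrin receptor of endothelium and other cells, had 18.4 and 11.96 CPM in control, 13.5 and 21.4 CPM in tau, and 14.3 and 14.7 CPM in treated tau. Sema5a, a transmembrane semaphorin, had 110 and 71.2 CPM in control, 70.1 and 109 CPM in tau, and 94.9 and 93.5 CPM in treated tau. In both genes control 1 and tau 2 were the highest libraries, while the treated tau libraries were nearly equal. Sema6a, a ligand of Plxna2 and Plxna4, had 22.4 CPM in control 1 and between 12.7 and 14.0 CPM in the other 5 libraries. Control 1 is the library with the high olfactory bulb markers (204 CPM), which were not high in tau 2 (48.9 CPM). The summed oligodendrocyte markers were highest in tau 2 (5490 CPM), then in control 1 (2891 CPM), closely followed by treated tau 2 (2832 CPM). The part of either marker list in the values of Unc5b, Sema5a and Sema6a was not tested. Without control 2, so that control 1 alone stood for control, Sema6a was called lower in treated tau (edgeR adjusted p = 0.0372).

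**Figure D4:**
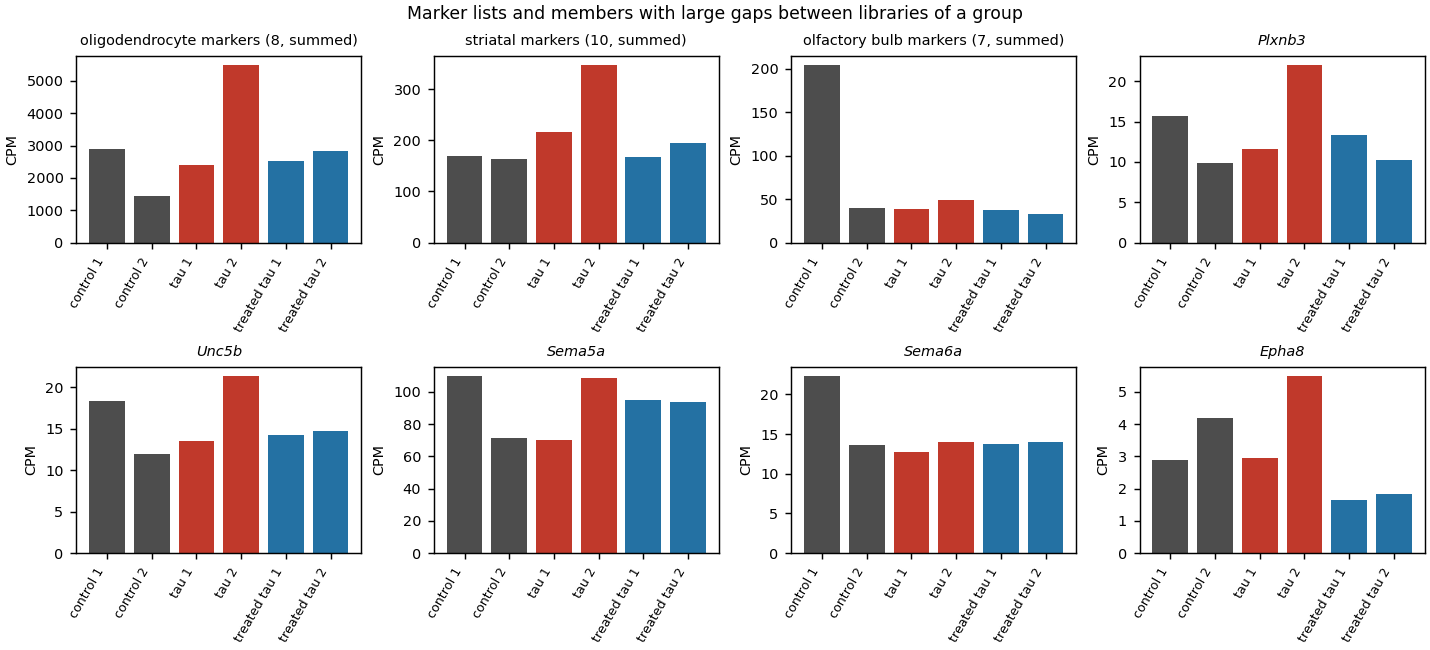
CPM by library (bars from 0) of 3 summed marker lists and of Plxnb3, Unc5b, Sema5a, Sema6a and Epha8, with control in grey, tau in red and treated tau in blue. Oligodendrocyte and striatal sums peak in tau 2 and the olfactory bulb sum in control 1; Plxnb3 peaks in tau 2 and Sema6a in control 1.

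Further genes of the pathway were read from a list of 78 co-receptors, adaptors and cytoskeletal effectors outside the symbol rule, all of which were tested. For tau against control edgeR called 0 of them, with 12 at an unadjusted p under 0.05 (15.4%, against 9.95% of all genes), 32 positive and 46 negative (median -0.04). For treated tau against control it called 0, with 8 at an unadjusted p under 0.05 (10.3%, against 16.3%), 43 positive and 35 negative (0.01). For treated tau against tau it called 1 (1.28%, against 3.76%), with 15 at an unadjusted p under 0.05 (19.2%, against 12%), 46 positive and 32 negative (0.04). The called gene was Dscam, an adhesion molecule and netrin receptor. It had 84.9 and 92.7 CPM in control, 70.4 and 72.2 CPM in tau, and 90.1 and 97.5 CPM in treated tau. Tau was the lowest group and the other groups overlapped. Its log2 fold change for treated tau against tau was 0.40 ± 0.09 (edgeR adjusted p = 0.039). The call was lost when either tau or either treated tau library was left out (adjusted p from 0.117 to 0.323) and when protein-coding genes were fitted alone (0.144), also without Rpl, Rps, Gm and Rik symbols (0.187). It was further lost with a sex term (0.181), with GC content and length offsets (0.0636) and with no filter on low counts (0.0708).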

How the data were processed

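The authors deposited 1 table per library, holding raw read counts by gene symbol. Per the labels' protocols, libraries were strand-specific and ribosomal RNA was removed, reads were trimmed with Cutadapt, and TopHat2 aligned them to RefSeq mRNAs. The submitters' processing notes also name SAMtools, featureCounts, edgeR and mm10. Versions, strand and multi-mapping settings were not given in the sources used here. Treated tau tables use another symbol list than the other 4 (494 and 789 unshared symbols, holding 0.333% to 0.352% of counts), and only the 53640 shared symbols were used. In comparisons with treated tau, a difference of counting therefore cannot be told apart from one of treatment.

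Counts were filtered (filterByExpr, minimum count 10), TMM-scaled and fitted with edgeR 4.0.16 (quasi-likelihood, two-sided, all 6 libraries, 3 groups, 3 residual degrees of freedom) in R 4.3.3. Adjusted p is the Benjamini-Hochberg value over 20694 genes, and a gene was called under 0.05. Errors are the SE of the log2 fold change from this fit of all 6 libraries, not the spread of the 2 libraries in a group. The fit shares information on spread among genes, so the intervals rest on more than the 3 residual degrees of freedom. Whether the duplicates were separate animals rests on the labels. Replicates differed by more than counting noise (chi-square per degree of freedom 11.1 to 15.9). Alternatives were DESeq2 1.42.0, limma-voom (limma 3.58.1), other scaling, filters and gene sets, GC content and length offsets (mgcv 1.9.3), a replicate block, a sex term and leaving out libraries. Scripts were tested on simulated data.

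Positions and exon lengths came from GENCODE M21 (GRCm38, the assembly of mm10). Members given in full were, per comparison, the 8 of lowest p, since none was called, the highest gene per kilobase of each family, and the 4 with the largest gap within a group. At most 2.6% of any member's 50-mers occur in another gene. The members and lists were chosen with earlier results of these data known.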

Additional observations from a re-analysis of the deposited data

How the results depend on the processing

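The count of called members, 0 in each comparison, stayed at 0 under 17 of 18 alternatives for tau against control. It did so under 14 of 18 for treated tau against tau and 15 of 18 for treated tau against control. For tau against control, any gene at all was called only by DESeq2, without control 2, without tau 2 and without control 1 and tau 2 together. In the other fits of that comparison no gene was called, so the count of members there says nothing about the members themselves. For treated tau against tau the count of called members became 1 (Plxna1) with only the 2 groups fitted. For treated tau against control it became 1 with a sex term (Sema6a). Only the control group holds both sexes, so this fit sets each PS19 group against the 1 control library of its sex, and the Sema6a call is the one seen without control 2. Leaving out 1 library at a time gave 0 in every case for tau against control, 0 to 1 for treated tau against tau (1, Plxna1, without control 1 or without control 2) and 0 to 1 for treated tau against control (1, Sema6a, without control 2). Leaving out control 1 and tau 2 together, an alternative added after the data were seen, gave 1 for tau against control (Unc5c, log2 fold change -0.59, adjusted p = 0.0346; 1.49% of members against 0.606% of genes), 4 for treated tau against tau (Robo3, Sema5a, Sema5b and Unc5a, all higher; 5.97% of members against 4.88% of genes) and 3 for treated tau against control (Epha8 and Unc5c lower, Sema5a higher; 4.48% against 5.19%). That fit leaves 1 library in control and in tau, assumed to vary like the treated tau pair; the cause of these calls was not tested.

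With the replicate block of the titles' numbers the count was 0 in each comparison. The titles do not state that the numbers pair animals, and they were not taken to do so. Deviations of same-numbered libraries correlated at -0.005, 0.089 and -0.134 across 10841 genes for the 3 pairs of groups. These correlations cannot decide on pairing, because the deviations also hold the sex and marker differences between libraries of a group. Fold changes under the alternatives were computed for the 8 members of lowest p in each comparison and for Dscam, and none of these turned its direction. With protein-coding genes alone the test called 45 genes in treated tau against tau in place of 779, and 40 in treated tau against control in place of 873; no member was called there. Without Rpl, Rps, Gm and Rik symbols as well, these counts were 24 and 17. The sex term left 166 genes in treated tau against tau. Leaving out 1 library gave 0 to 98 genes for tau against control (98 without control 2, 9 without tau 2), 354 to 840 for treated tau against tau (354 without tau 1, 504 without tau 2, 429 without treated tau 1 and 421 without treated tau 2) and 495 to 817 for treated tau against control (507 without treated tau 1, 495 without treated tau 2). Without control 1 and tau 2 together 130 genes were called for tau against control. With the sex term, values for treated tau against tau moved to 0.61 for Plxna1, 0.37 for Plxna2, 0.50 for Unc5a, 0.31 for Sema6b and -0.68 for Epha8, none of them called. In this fit the difference between the sexes is that between control 1 and control 2. The moved values therefore also carry whatever else set those 2 libraries apart, and sex cannot be told apart from it.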
